A study of Homo sapiens with 9 samples.

Results

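The EGR family and NAB corepressor loci are 6 windows of the human genome (hg19) drawn around EGR1, EGR2, EGR3, EGR4, NAB1 and NAB2, in which EGR1 binding was read from 2 deposited lists of ChIP-seq peaks. A peak belonged to a window when its summit, the base of highest signal, lay inside it, whatever its values. The windows covered 340 kb and held 23 of the 12340 peaks listed for cells induced and given clobetasol and 25 of the 16285 peaks listed for induced cells. The cells were BJ-hTERT fibroblasts carrying an inducible B-RAF V600E, an oncogenic kinase that drives MAP kinase signalling, and all groups are the same immortalised line. The induced and clobetasol group received 1000 ng/mL doxycycline with 2 nM of the glucocorticoid clobetasol, the induced group received 1000 ng/mL doxycycline with DMSO, and the proliferating group received ethanol with DMSO, each for 24 h and with 3 libraries. DMSO appears in the titles of all 3 groups, but among the source labels only in those of the induced and proliferating groups. Each list sets 1 pool of 3 treated libraries against 1 pool of 3 proliferating EGR1 ChIP libraries, so a peak is a site above proliferating cells and no value has a spread between replicates.

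EGR1, EGR2, EGR3 and EGR4 are zinc finger transcription factors with closely related DNA-binding domains that recognise GC-rich sites. They are immediate early genes, transcribed within minutes of growth factor or stress signals through the MAP kinase pathway and the serum response factor, which binds the CArG box. NAB1 and NAB2 are corepressors that bind EGR1, EGR2 and EGR3 and restrain transcription at EGR target genes, and NAB2 is itself a known EGR target, which forms a negative feedback loop.

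Promoter sequences from RefSeq (GRCh38.p14) were available for 5 of the 6 members, as 9 start sites, and the 250 bases before each start were searched on both strands for the EGR sites GCGTGGGCG and GCGGGGGCG and for the CArG box. Sequences are shown for the start sites that held a match, 5′ to 3′ on the strand of the gene with matches in capitals: the full 250 bases for EGR1 (chr5:138465229-138465478, plus strand), the first NAB1 start (chr2:190648645-190648894, plus strand) and NAB2 (chr12:57088864-57089113, plus strand), and 30 bases around the match for the third EGR2 start (chr10:62816418-62816447, minus strand) and the second NAB1 start (chr2:190648898-190648927, plus strand).
EGR1: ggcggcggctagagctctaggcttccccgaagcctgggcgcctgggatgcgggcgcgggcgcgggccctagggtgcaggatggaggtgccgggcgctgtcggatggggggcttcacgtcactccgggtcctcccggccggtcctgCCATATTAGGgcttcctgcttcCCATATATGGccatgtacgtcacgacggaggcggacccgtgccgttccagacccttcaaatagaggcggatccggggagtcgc
EGR2, start 3: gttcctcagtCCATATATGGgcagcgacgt
NAB1, start 1: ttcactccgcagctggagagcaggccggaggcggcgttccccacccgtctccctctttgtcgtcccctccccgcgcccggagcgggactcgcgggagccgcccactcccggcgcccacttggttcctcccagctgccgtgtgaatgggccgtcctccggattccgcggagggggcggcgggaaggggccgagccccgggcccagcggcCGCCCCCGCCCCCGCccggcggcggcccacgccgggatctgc
NAB1, start 2: actcggccgcGCGTGGGCGggagccggagc
NAB2: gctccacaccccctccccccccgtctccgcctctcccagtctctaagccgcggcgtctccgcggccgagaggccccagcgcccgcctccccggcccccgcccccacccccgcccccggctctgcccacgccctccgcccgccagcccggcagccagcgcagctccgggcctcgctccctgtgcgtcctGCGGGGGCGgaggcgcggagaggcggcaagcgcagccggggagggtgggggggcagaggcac
The EGR1 promoter held 2 CArG boxes, at 105 to 96 and 83 to 74 bases before the start, and neither EGR site. Of 35116 RefSeq promoter sequences of the same length, 1.16% held a CArG box and 0.0313% held at least 2. The third EGR2 start had 1 CArG box at 71 to 62 bases before it. The first NAB1 start had 2 overlapping matches of GCGGGGGCG on the opposite strand, at 42 to 34 and 36 to 28 bases before it, and NAB2 had 1 match at 62 to 54 bases. That site stood in 4.72% of all promoter sequences. The second NAB1 start, whose window overlaps that of the first, also had GCGTGGGCG at 175 to 167 bases before it, a site found in 0.72% of all promoter sequences. None of these letters stood before the EGR4 start, the other 2 EGR2 starts or the third NAB1 start. A match describes the letters only, and because peaks are in hg19 and promoters in GRCh38, no peak was placed relative to a promoter.

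EGR1 signal rose above proliferating cells in all 6 windows in both lists. Induced peaks numbered 7 at EGR1, 5 at EGR2, 4 at EGR3, 1 at EGR4, 2 at NAB1 and 6 at NAB2. As background, of 60611 bins of 50 kb on chromosomes 1 to 22 and X, 14.9% held a clobetasol peak and 18.1% an induced peak. At least 4 induced peaks stood in 0.696% of bins, at least 5 in 0.294%, at least 6 in 0.142% and at least 7 in 0.0511%. The windows run from 40 to 90 kb and were drawn around named genes, so these shares are a scale and not a test. Sites are named below by their window, not by an assigned gene, and are numbered along the chromosome. Of the 25 induced sites, 21 overlapped a peak of the clobetasol list.

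**Figure D1:**
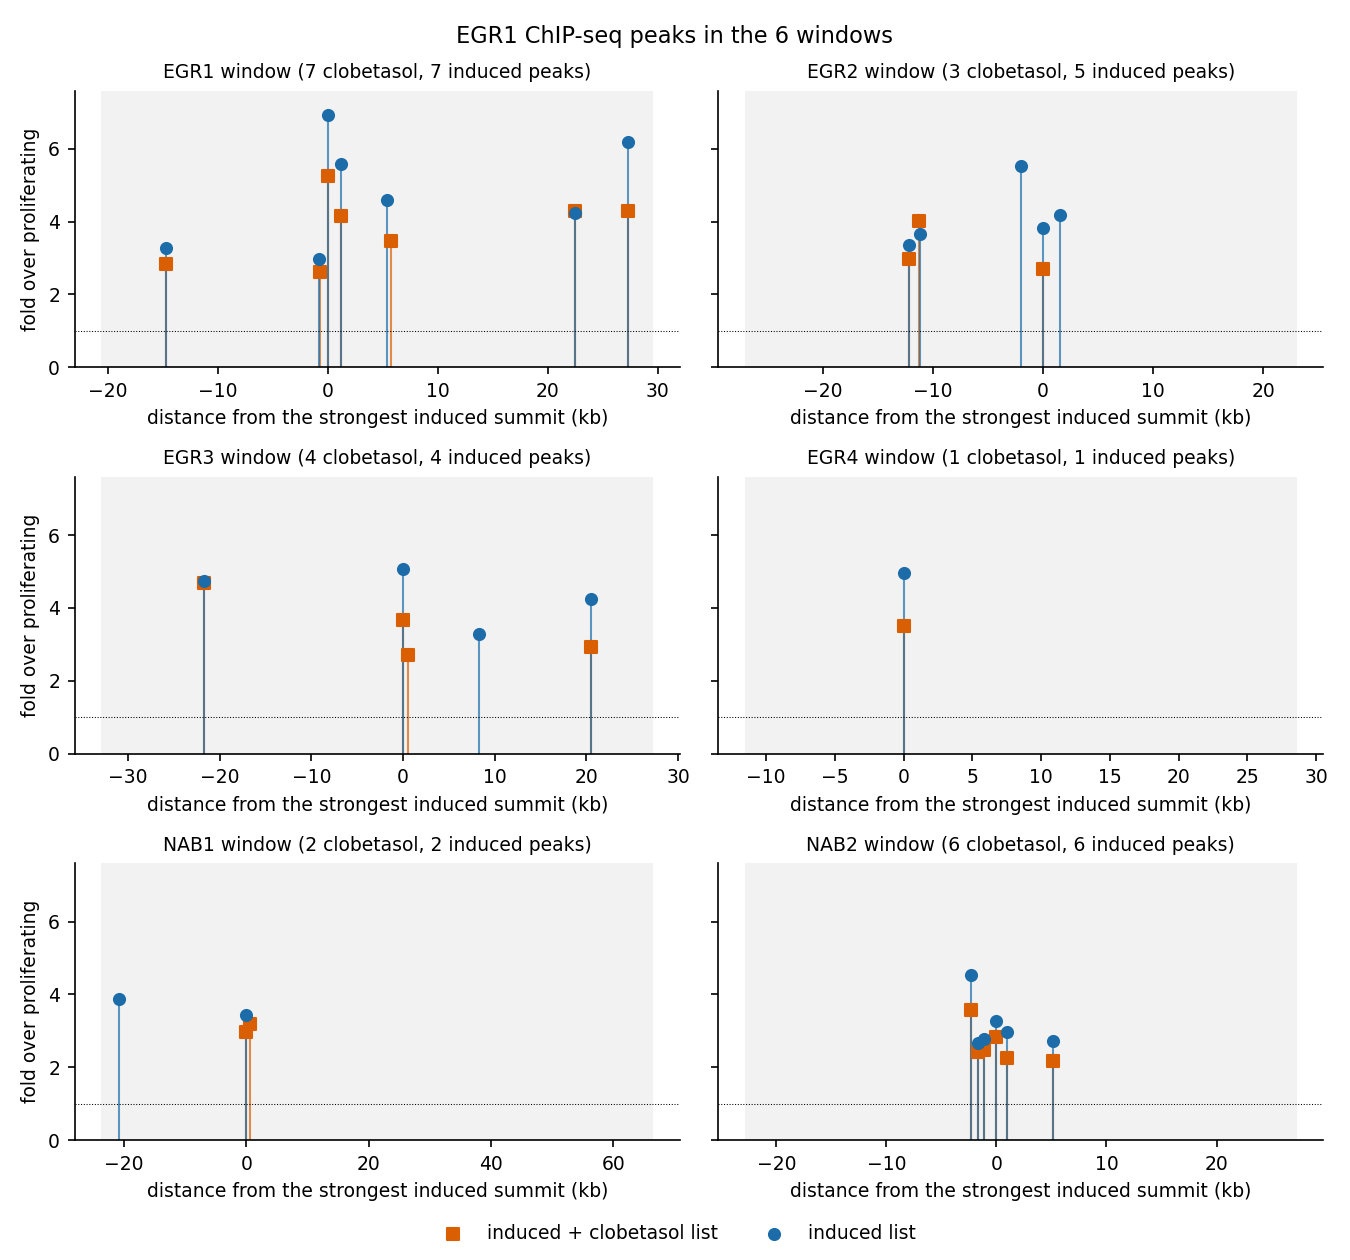
Peaks of the 6 windows, with distance from the summit of highest −log10 q in the induced list on the x axis (kb) and the authors' fold over proliferating cells on the y axis; squares are the induced and clobetasol list, circles the induced list, grey marks the window and the dotted line a fold of 1. The 6 NAB2 sites lie within 7419 bp, whereas the EGR1 and EGR3 sites spread over 42005 and 42235 bp.

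EGR1 itself, the factor that was immunoprecipitated, had 7 sites in both lists on chromosome 5, and 3 of the 7 were called lower with clobetasol at the depth-scaled level, against 22.6% of all shared sites. All 3 calls were lost with no depth scaling and with the median of all shared sites set to 1. The median depth-scaled ratio of clobetasol over induced fragments was 0.840 at the 7 sites, against 0.799 over all shared sites. The 3 called sites held 195 to 331 induced fragments, against a median of 64 over all induced peaks. Sites with more fragments pass the threshold more readily. The window spans 137.78 to 137.83 Mb. In RefSeq order of protein-coding genes, EGR1 stands between REEP2 and ETF1. Window edges were not compared with neighbouring genes at any locus, so a peak in a window was not assigned to a gene. Folds ran from 2.62 to 5.26 in the clobetasol list and from 2.98 to 6.93 in the induced list, as the authors' ratio of treated to proliferating signal at the summit. The strongest site by induced −log10 q, EGR1 site 3 (chr5:137800303-137800767), had a −log10 q of 108 with clobetasol and 154 in induced cells. Its summit held 244 fragments in the clobetasol pool scaled to the depth of the induced pool, and 331 in the induced pool. The control level from the proliferating pool, scaled likewise, was 46.9. Proliferating values here and below are that control level, which need not be a count of fragments at the summit. The clobetasol level was 0.739 of the induced level (exact 95% interval 0.629 to 0.866, adjusted p = 0.00294, exact binomial test, two-sided, adjusted by Benjamini-Hochberg over the shared sites of both lists, 10429 in all). That test compares 1 pool with 1 pool and covers counting error only.

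EGR1 site 4 (chr5:137801072-137802217) had its summit 1170 bp beyond site 3 and was a broad peak, 1061 bp wide with clobetasol and 1146 bp in induced cells. It held 139.9 fragments with clobetasol, 195 in induced cells and 34.2 in proliferating cells, a ratio of 0.718 (0.581 to 0.886, adjusted p = 0.0131, exact binomial test). EGR1 site 7 (chr5:137827529-137828127), at the far end of the window and 27307 bp from site 3, held 137 fragments with clobetasol, 200 in induced cells and 31.4 in proliferating cells. Its ratio of 0.687 (0.556 to 0.848, adjusted p = 0.0049, exact binomial test) was the lowest of the window. At these 3 sites the clobetasol pool stood between the induced pool and the proliferating level. The same holds at any shared site with a ratio below 1, since listed peaks lie above the proliferating level.

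EGR1 site 6 (chr5:137822761-137823093), 4876 bp from site 7, held the most fragments of the window and was level between treatments. It had 377 fragments with clobetasol, 378 in induced cells and 88.2 in proliferating cells, a ratio of 0.997 (0.868 to 1.15, adjusted p = 1, exact binomial test). That proliferating level was 13.6 times the minimum among induced peaks, at or above that of 97.5% of them. Without repeat annotation, strong binding and a stretch that gathers reads in any library cannot be told apart here. The interval of site 6 did not overlap that of site 3, 0.629 to 0.866, or that of site 7, 0.556 to 0.848, but it overlapped that of site 4, 0.581 to 0.886. The difference between sites was not tested. In the clobetasol list site 6 had the highest −log10 q of the window, 135, and in the induced list it came after site 3, with 110.

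The other 3 EGR1 sites missed the threshold. EGR1 site 1 (chr5:137785663-137785944) held 184 fragments with clobetasol, 210 in induced cells and 63.4 in proliferating cells, a ratio of 0.874 (0.721 to 1.06). EGR1 site 2 (chr5:137799503-137799925), 832 bp before site 3, was the weakest of the window, with 40.3 fragments with clobetasol, 48 in induced cells and 15.4 in proliferating cells, a ratio of 0.84 (0.553 to 1.28). EGR1 site 5 (chr5:137805024-137807266) held 65 fragments with clobetasol, 73 in induced cells and 15.1 in proliferating cells, a ratio of 0.891 (0.64 to 1.24). It was the widest peak of the 6 loci, at 2359 bp with clobetasol and 2243 bp in induced cells, wider than 99.8% of induced peaks. Its summits in the lists lay 356 bp apart, so its fragments were read at different bases.

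EGR2, known for its part in Schwann cell myelination and hindbrain patterning, had 3 clobetasol and 5 induced peaks on chromosome 10 (64.55 to 64.60 Mb). In gene order EGR2 stands between ADO and NRBF2. The sites fell into 2 groups, sites 1 and 2 with summits 919 bp apart, and sites 3, 4 and 5 with summits 1958 and 1554 bp apart. EGR2 site 4 (chr10:64576789-64577218) had the highest induced −log10 q, 9.96 with clobetasol and 21.9 in induced cells. It held 59.3 fragments with clobetasol, 87 in induced cells and 22.1 in proliferating cells, a ratio of 0.681 (0.491 to 0.942) that missed the threshold over all shared sites (adjusted p = 0.0646, exact binomial test). EGR2 site 1 (chr10:64564705-64565039) held 65.8 fragments with clobetasol, 73 in induced cells and 21 in proliferating cells, a ratio of 0.902 (0.649 to 1.26).

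EGR2 site 2 (chr10:64565577-64565931) was the single shared site of the 6 loci with a ratio above 1. It held 46.9 fragments with clobetasol, 45 in induced cells and 11.6 in proliferating cells, and its ratio of 1.04 had an interval of 0.693 to 1.58 that includes 1. EGR2 site 3 (chr10:64574762-64575514) had the highest induced fold of the window, 5.51, above 92.5% of induced peaks, yet no overlapping clobetasol peak was listed. It held 52 fragments in induced cells against a proliferating level of 8.61. EGR2 site 5 (chr10:64578254-64578974), with 40 fragments in induced cells against 8.82 in proliferating cells, also lacked a clobetasol peak.

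EGR3, which acts in muscle spindle development and lymphocytes, had 4 peaks in each list on chromosome 8 (22.52 to 22.58 Mb). In gene order EGR3 stands between BIN3 and PEBP4. EGR3 site 2 held the most fragments of the window and was called lower with clobetasol. It held 225 fragments with clobetasol, 306 in induced cells and 59.6 in proliferating cells, a ratio of 0.734 (0.621 to 0.867, adjusted p = 0.0038, exact binomial test). The call was lost with no depth scaling, at a ratio of 0.892, and with the median of all shared sites set to 1, at 0.919. In induced cells it was 1 peak of 1604 bp with a −log10 q of 107, and in the clobetasol list the same stretch held 2 peaks, of 983 and 366 bp, with −log10 q values of 65.7 and 20.6.

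EGR3 site 1, 21726 bp from site 2, held 42.8 fragments with clobetasol, 45 in induced cells and 8.69 in proliferating cells, a ratio of 0.951 (0.626 to 1.45). EGR3 site 4, at the other end of the window, held 46.9 fragments with clobetasol, 69 in induced cells and 15.4 in proliferating cells, a ratio of 0.68 (0.47 to 0.98) that missed the threshold (adjusted p = 0.0981, exact binomial test). The width listed for site 4 was 250 bp with clobetasol and 1271 bp in induced cells. EGR3 site 3 had 44 fragments in induced cells against 12.7 in proliferating cells and no clobetasol peak.

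EGR4, a family member studied mainly in the nervous system and germ line, had 1 peak in each list on chromosome 2 (73.50 to 73.54 Mb). In gene order EGR4 stands between FBXO41 and ALMS1. The peak was not placed relative to EGR4 or either neighbour, so it need not lie at EGR4. EGR4 site 1 (chr2:73511079-73512024) had a fold of 3.52 with clobetasol and 4.95 in induced cells, and the induced fold lay above that of 86.3% of induced peaks. It held 42.8 fragments with clobetasol, 64 in induced cells and 12.1 in proliferating cells. The ratio of 0.669 was the lowest of the 21 shared sites, and sites with no clobetasol peak have no ratio. Its interval of 0.455 to 0.98 lay below 1, but it missed the threshold (adjusted p = 0.0984, exact binomial test). The listed width was 398 bp with clobetasol and 946 bp in induced cells.

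NAB1, a corepressor found through its binding to EGR1, had 2 peaks in each list on chromosome 2 (191.49 to 191.58 Mb). NAB1 site 2 (chr2:191513334-191514532) held the most fragments of all 25 sites, 463 with clobetasol, 540 in induced cells and 156 in proliferating cells. Its ratio of 0.857 (0.76 to 0.966) passed the threshold narrowly (adjusted p = 0.0484, exact binomial test). With no depth scaling the ratio was 1.04, and with the median of all shared sites set to 1 it was 1.07, so both settings ended the call and turned its direction. Each setting multiplies every ratio by 1 factor, so the turn is not particular to this site. The unscaled setting also leaves the clobetasol pool 1.21 times as deep as the induced pool. The proliferating level, 24.1 times the minimum among induced peaks, lay above that of 98.6% of them, so this site already carried strong signal in proliferating cells. No repeat annotation was used, and a stretch that gathers reads in any library cannot be told apart from a strongly bound one. The single induced peak of 1199 bp was listed as 2 clobetasol peaks, of 457 and 396 bp. NAB1 site 1 (chr2:191492536-191492934), 20897 bp away, held 65 fragments in induced cells against 16 in proliferating cells and had no clobetasol peak.

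NAB2 had 6 peaks in each list on chromosome 12 (57.46 to 57.51 Mb), and every induced peak overlapped a clobetasol peak. In gene order NAB2 stands between NEMP1 and STAT6. All 6 ratios lay between 0.764 and 0.906, and none passed the threshold. Proliferating levels at the 6 sites were 6.63 to 24.8 times the minimum among induced peaks. The limit on telling bound from read-gathering stretches, given for NAB1 site 2, applies here too. The site of highest −log10 q, NAB2 site 4 (chr12:57482372-57482980), had 90.7 with clobetasol and 110 in induced cells. It held 452 fragments with clobetasol, 526 in induced cells and 160.0 in proliferating cells, a ratio of 0.859 (0.761 to 0.97, adjusted p = 0.0544, exact binomial test).

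NAB2 site 2 (chr12:57480937-57481305) held 375 fragments with clobetasol, 430 in induced cells and 161 in proliferating cells, a ratio of 0.873 (0.763 to 0.998). NAB2 site 1 (chr12:57480317-57480605) had the highest fold of the window, 3.57 with clobetasol and 4.52 in induced cells, and the smallest proliferating level, 43. It held 179 fragments with clobetasol and 198 in induced cells, a ratio of 0.906 (0.744 to 1.1). The lowest ratios of the window were those of NAB2 site 5 (chr12:57483613-57483952), at 0.764 (0.616 to 0.948, adjusted p = 0.055), and NAB2 site 6 (chr12:57487769-57488190), at 0.777 (0.627 to 0.964, adjusted p = 0.0742), both from exact binomial tests. NAB2 site 3 (chr12:57481590-57481864) had a ratio of 0.894 (0.738 to 1.08).

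**Figure D2:**
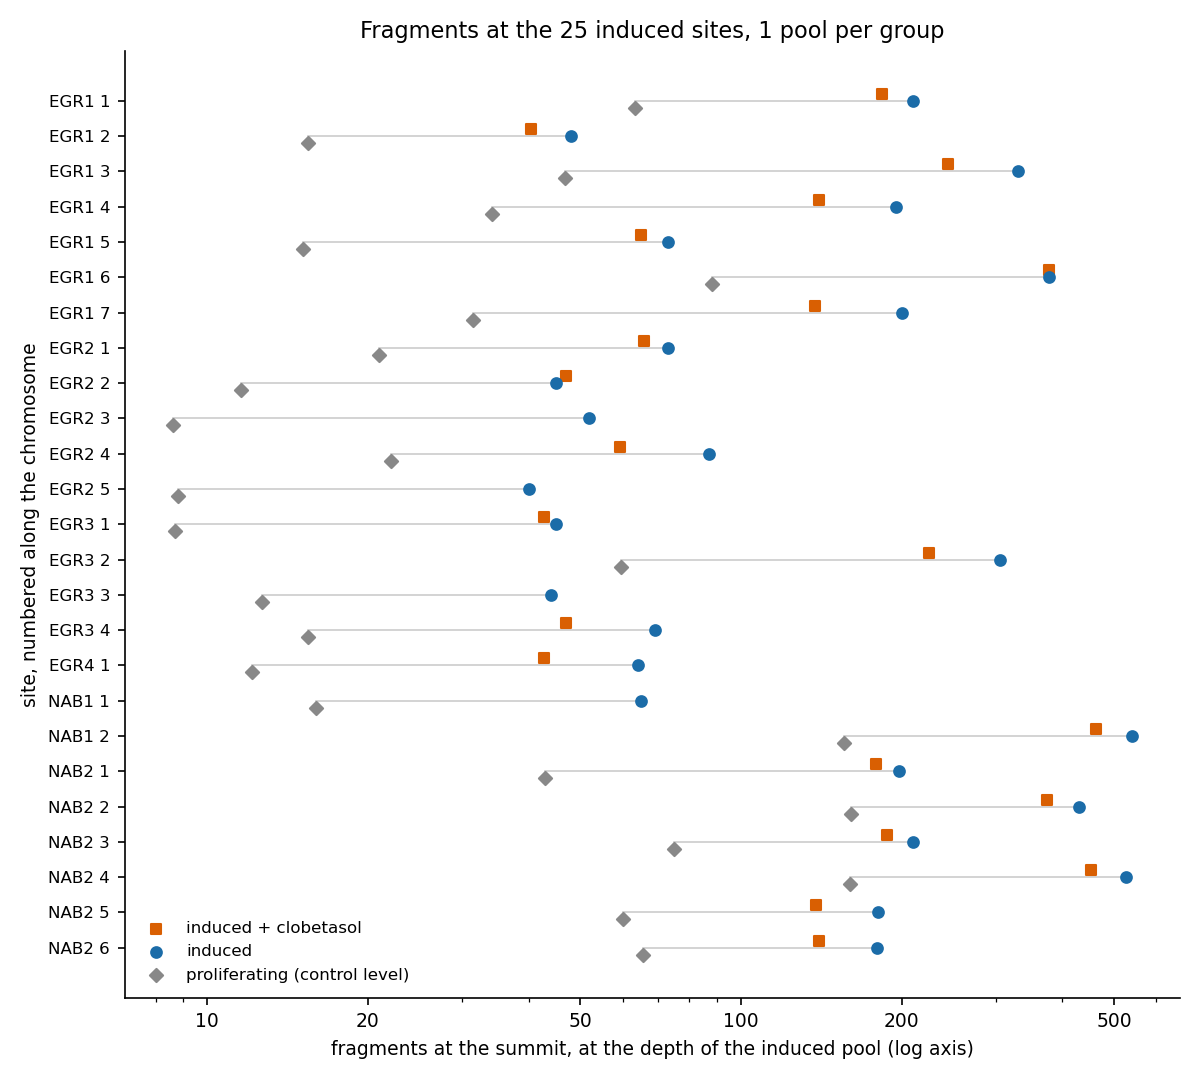
Fragments at the summit of each of the 25 induced sites on a log x axis, scaled to the depth of the induced pool, with 1 pool per group: squares are induced and clobetasol cells, circles induced cells and diamonds the proliferating control level. Sites with no square have no clobetasol peak, and NAB1 site 2 and NAB2 site 4 hold the most fragments in both treated pools.

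By median, NAB sites had higher levels in proliferating cells, and lower folds, than EGR sites. Of the 8 induced NAB sites, 6 are the NAB2 sites within 7419 bp. NAB1 site 1 had a control level of only 2.47 times the lowest and a fold of 3.88, above the list's median. The fold is taken over the control level, so the measures are linked. The control level from proliferating cells exceeded the list's lowest by more than 5 times at 7 of 8 NAB sites and 5 of 17 EGR sites, against 17.9% of all induced peaks. The limit on telling bound from read-gathering stretches applies to those EGR sites as well. Median fold at EGR sites was 3.52 with clobetasol (15 peaks) and 4.26 in induced cells (17 peaks). Median fold at NAB sites was 2.66 with clobetasol and 3.13 in induced cells (8 peaks each). The medians of the whole lists were 3.16 with clobetasol and 3.64 in induced cells. Induced folds lay above the list's median at 13 of 17 EGR sites and 2 of 8 NAB sites. These differences are given with no test.

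**Figure D3:**
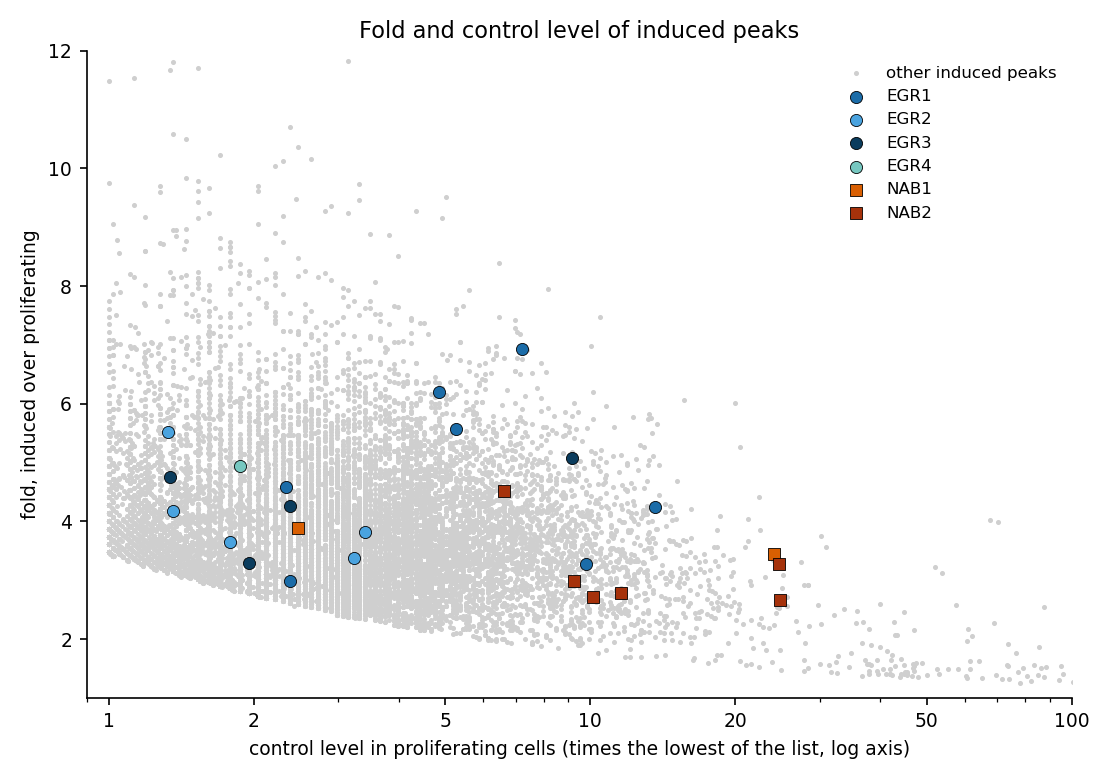
Induced peaks by control level in proliferating cells, as a multiple of the lowest of the list (log x axis), and by the authors' fold over proliferating cells (y axis); blue circles are EGR sites, orange to red squares NAB sites and grey dots other induced peaks, of which 107 lie outside the axes. Of the NAB squares, 7 of 8 lie right of 5 times the lowest level and 6 of 8 lie below the median fold of 3.64.

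Across the loci, the clobetasol pool was mostly below the induced pool, as it was across the genome. The ratio was below 1 at 20 of the 21 shared sites, against 87.4% of all shared sites. It was called lower at 5 of the 21, the EGR1 sites 3, 4 and 7, EGR3 site 2 and NAB1 site 2, against 22.6% of all shared sites. None was called higher, against 0.384% of all. The 95% interval lay below 1 at 12 of the 21, against 35.5% of all shared sites. Intervals narrow with depth. The median induced peak held 180 fragments over all 25 member peaks and 64 over all 16285 listed, shared or not. The median ratio was 0.857 at the members and 0.799 over all shared sites, whose interquartile range was 0.707 to 0.911. The share called lower is near that of all shared sites, while the shares with a ratio or an interval below 1 are higher. No difference between these loci and other shared sites was tested.

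Calls depended on how the pools were scaled. With no scaling for depth, and with the median of all shared sites set to 1, none of the 21 member sites was called lower or higher. Over all shared sites, 0.710% were then called lower and 1.78% higher with no depth scaling, and 0.508% lower and 2.28% higher with the median set to 1, so the balance of calls over all sites also turned. Relative to the shift of all shared sites, EGR1 sites 3, 4 and 7 had ratios of 0.924, 0.898 and 0.86, EGR3 site 2 had 0.919 and NAB1 site 2 had 1.07. EGR1 site 6 had 1.25 on that scale. NAB1 site 2 and EGR1 site 6 thus lay above 1 on that scale. All 21 ratios share 1 scaling factor, so which sites cross 1 follows from their depth-scaled ratios alone.

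**Figure D4:**
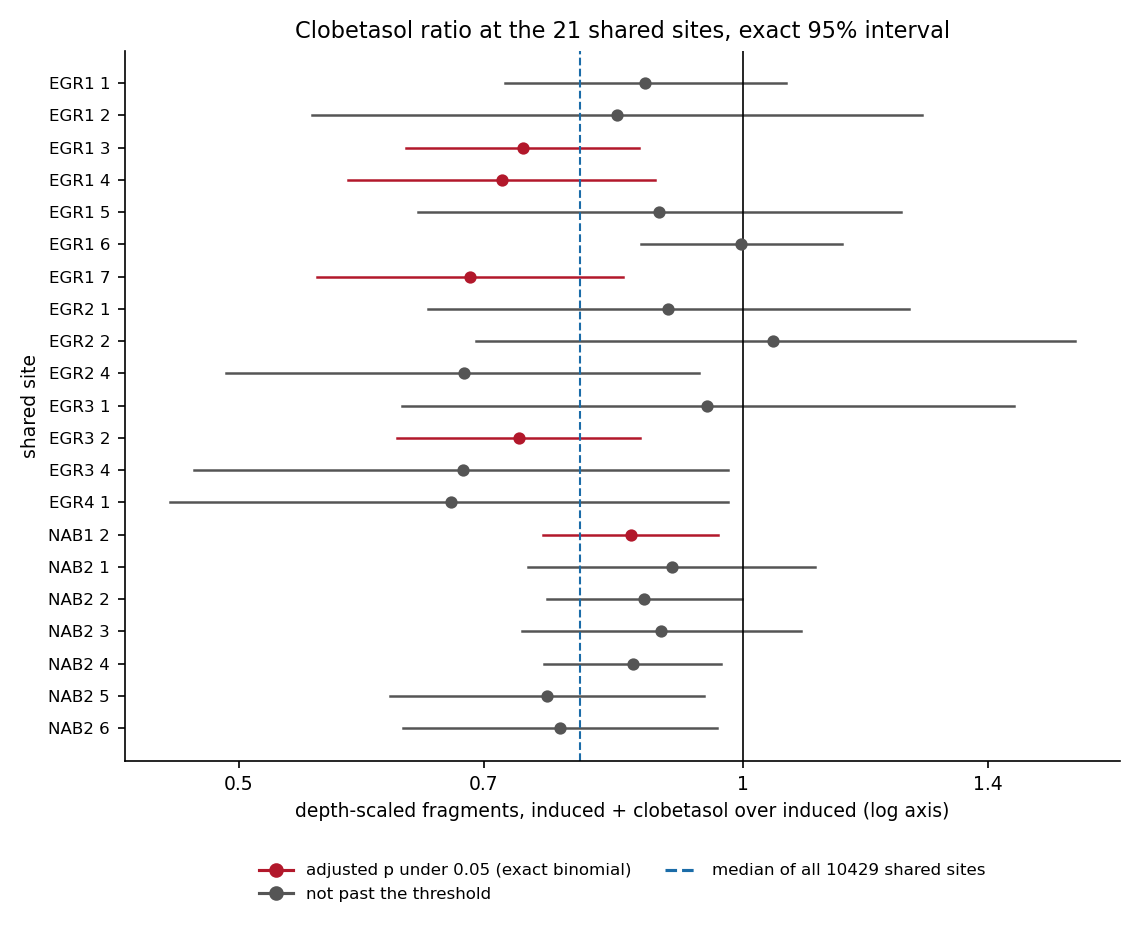
Depth-scaled fragments with clobetasol over those in induced cells at the 21 shared sites (log x axis), with exact 95% intervals that cover counting error only; red marks an adjusted p under 0.05 and the dashed line is the median of all 10429 shared sites. EGR1 site 6 lies at 0.997 while EGR1 sites 3, 4 and 7 lie between 0.687 and 0.739.

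Most induced sites of these loci were also listed with clobetasol. Of the 25 induced sites, 21 (84.0%) overlapped a clobetasol peak, against 64.0% of all induced peaks. Among stronger peaks, with a −log10 q of at least 10, 20 of 23 member sites overlapped a clobetasol peak, against 80.5% of all. In the other direction, all 23 clobetasol peaks overlapped an induced peak, against 86.4% of all clobetasol peaks. The members had a median induced −log10 q of 27.2, against 14.9 over the whole list. At thresholds applied to both lists, 18 of 23 member sites were retained at a −log10 q of 10, against 63.8% of all, 11 of 17 at a −log10 q of 20, against 56.4%, and 11 of 20 at a fold of 3, against 46.0%.

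The 4 sites without a clobetasol peak were EGR2 sites 3 and 5, EGR3 site 3 and NAB1 site 1, with 40 to 65 induced fragments. To reach the lowest listed −log10 p, the clobetasol pool needed 33 fragments at EGR2 site 3, where the induced level at that depth would be 63.2. It needed 34 against 48.6 at EGR2 site 5, 42 against 53.5 at EGR3 site 3, and 49 against 79 at NAB1 site 1. At an equal control level these numbers correspond to ratios of 0.522, 0.7, 0.786 and 0.62, in the same order, above which a listed peak would have been possible. Between the clobetasol peaks listed on either side, 1 peak number was skipped at EGR2 site 3, 7 at EGR2 site 5 and 2 at NAB1 site 1, and whether an unlisted peak covered any of these sites is not known. None was skipped at EGR3 site 3, where the nearest clobetasol summit lay 7693 bp away. The induced list skips 2 numbers between its EGR1 peaks and 1 between its EGR3 peaks.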

How the data were processed

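EGR1 ChIP-seq was analysed from 2 peak lists. Per the submitters' processing notes, tools named were MACS2 2.1.1.20160309, BWA, SAMtools 1.3.1, cutadapt 1.15, bcl2fastq and FastQC 0.11.5, and the build was hg19. The sources used here do not state peak-caller settings. Each list, per the peak names in it, sets replicates 1, 2 and 3 of a treated group, pooled by the authors, against the pooled proliferating ChIP libraries, with no input library named. Replicates 2 and 3 of the proliferating group have library names that share 1 sample name, which leaves the number of distinct samples in that pool unsettled. The labels do not say whether libraries came from separate cultures.

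The deposited fold is a ratio of treated to control level at the summit, and the deposited −log10 p and −log10 q belong to that summit. The lowest −log10 q was 5.00 in both lists. Peak numbers ran to 26677 with clobetasol and 52393 in induced cells, above the 12340 and 16285 peaks listed. Listed peaks are thus part of those numbered, and the filter applied is not known.

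Fold and −log10 p were solved for the treated fragments and the control level. Fragments came out within 0.05 of a whole number for 99.5% of clobetasol and 99.6% of induced peaks. Control levels stepped by 0.670 and 0.552, which gave a clobetasol depth of 1.21 times the induced pool. At the 21 shared sites the control level, in unscaled proliferating fragments, was solved from both lists. Its value from the clobetasol list over that from the induced list gave a median of 0.997 (0.952 to 1.2).

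Peaks were shared at 1 bp of overlap and paired by nearest summit. Ratios have exact 95% Clopper-Pearson intervals and an exact binomial test (two-sided), adjusted by Benjamini-Hochberg over all 10429 shared sites and a threshold of 0.05. These compare 2 pools. The computation was tested on simulated data. All 6 genes were named. Sites of a window were described in full, and members, windows and lists were chosen with earlier results of these data known. Planned gene lists and motifs in peaks were not run, since no hg19 annotation or genome was used. Analyses ran in Python 3.11.15 with SciPy 1.17.1 and pandas 2.3.3.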

Additional observations from a re-analysis of the deposited data

How the results depend on the processing

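No paired analysis was possible because each list pools its replicates, and for the same reason leaving out a replicate could not be run. The 23 clobetasol peaks became 12 when a −log10 q of 20 was required and 11 when the required fold was 3, and the 21 of 25 induced sites retained became 11 of 17 and 11 of 20 with those limits on both lists. The median ratio over the shared sites, 0.857, turned to 1.04 with no depth scaling and to 1.07 with the median of all shared sites set to 1, settings that multiply every ratio by 1 factor. Single sites turned above 1 under these settings, in that order: EGR1 site 1 at 1.06 and 1.09, site 2 at 1.02 and 1.05, site 5 at 1.08 and 1.11, and site 6 at 1.21 and 1.25; EGR2 site 1 at 1.1 and 1.13; EGR3 site 1 at 1.16 and 1.19; NAB1 site 2 at 1.04 and 1.07; NAB2 site 1 at 1.1 and 1.13, site 2 at 1.06 and 1.09, site 3 at 1.09 and 1.12, and site 4 at 1.04 and 1.08. After subtraction of the proliferating level, EGR1 site 6 had a ratio of 1.00029 and the median was 0.798. A stricter overlap of the peaks left 21 sites retained, and summits within 100 bp left 20. Depth limits the weak sites most: EGR1 site 2, with 48 induced fragments, has an interval of 0.553 to 1.28.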
